A study of Mus musculus with 12 samples.

Results

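The RNA response to 200 µM 4-thiouridine (4sU) was measured in NIH-3T3, a mouse fibroblast cell line of wild-type genotype, whose RNA was converted inside methanol-fixed cells. The comparison set 2 libraries, A and B, from cells given 200 µM 4sU against 2 libraries, A and B, with no 4sU, and it used 4 of the 12 libraries of the series. The members were all 15217 genes of the deposited table, of which 11080 passed the filter on low counts and were tested. Per the labels, all groups were grown in DMEM with NCS and have a labelling time of 2 h. The fixed-cell groups used besides were 800 µM 4sU, and in the other procedure, with conversion of isolated RNA in tubes, 200 µM 4sU and no 4sU (2 libraries each). The tube 800 µM group (2 libraries) enters the shared fit and no comparison. The labels give the conversions in fixed cells and in tubes different temperatures and times, so fixation and reaction conditions cannot be told apart between the procedures. Whether A and B came from separate cultures is not in the labels, and the p-values therefore reflect only how far these libraries spread, which may be technical.

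Cells take up 4sU, an analogue of uridine, and use it as a building block of new transcripts. The chemistry of SLAM-seq attaches iodoacetamide to the sulphur of 4sU, and the altered base is then read as C where the genome has T. Reads with such conversions mark new RNA, and the share of new RNA in a gene's total is high for short-lived transcripts, such as those of immediate early genes, and low for stable ones, such as those of ribosomal protein genes. The comparison asked whether the label itself went with a change in total RNA.

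The 200 µM libraries held 7762635 and 7510540 counts, and the no 4sU libraries 5385243 and 6211608. Scaling factors by the trimmed mean of M values (TMM) were 0.964 and 0.926 in the 200 µM libraries and 0.989 and 1.007 in the no 4sU libraries. Library A of the fixed 800 µM group stood apart on the first principal component, at 45.43 against 21.39 to 34.77 in the other 5 fixed-cell libraries; it enters the shared estimate of spread but not the comparison. All 12 fibroblast markers in the table (among them Col1a1, Vim and Thy1) exceeded 1 CPM (TMM-scaled counts per 1000000) in all 4 libraries. Their summed levels were 19780 and 19980 CPM with 200 µM 4sU and 20400 and 19350 CPM without. Markers of other cell types were lower. Those of macrophages summed to 13.27 and 16.91 CPM with 200 µM 4sU against 16.71 and 17.39 CPM without. Of these, Ptprc and Itgam were at 0, while Cd68, Csf1r and Cd14 exceeded 1 CPM in all 4 libraries. Neuronal markers summed to 14.17 and 10.32 CPM with 200 µM 4sU against 11.14 and 10.63 CPM without, and Map2 and Tubb3 exceeded 1 CPM in all 4. Those of endothelial cells and of epithelial cells summed to under 1 CPM in every library. In bulk RNA, fewer cells in a given state and less RNA per cell cannot be told apart.

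Of the 11080 genes tested, 90 were called changed by edgeR's quasi-likelihood test with Benjamini-Hochberg (BH) adjustment at 0.05, which is 0.812% of those tested. Of these, 27 rose (0.244%) and 63 fell (0.569%) with 200 µM 4sU. The fitted log2 folds of the rises had a median of 0.897 and those of the falls a median of -0.923. The 200 µM and no 4sU libraries did not overlap for any called gene, nor for 49.2% of all genes tested. Where groups of a called gene are described below as apart, this therefore adds no support to its call. The count depended on each library: leaving out 200 µM A left 3 calls, leaving out 200 µM B left 4, leaving out no 4sU A left 9, and leaving out no 4sU B left 2. A fit without the fixed 800 µM library A called 193 genes, 77 that rose and 116 that fell, including all 90. Scaling on low-ratio genes, the 2271 with the lowest new-to-total ratio among those with at least 100 counts, moved the median log2 fold of all genes by -0.105 and gave 18 rises and 181 falls. At the threshold, Herpud1 was just inside (edgeR, BH-adjusted p = 0.0494) and Rb1cc1, Atad2 and Fam193b just outside (edgeR, BH-adjusted p = 0.0501 each).

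**Figure D1:**
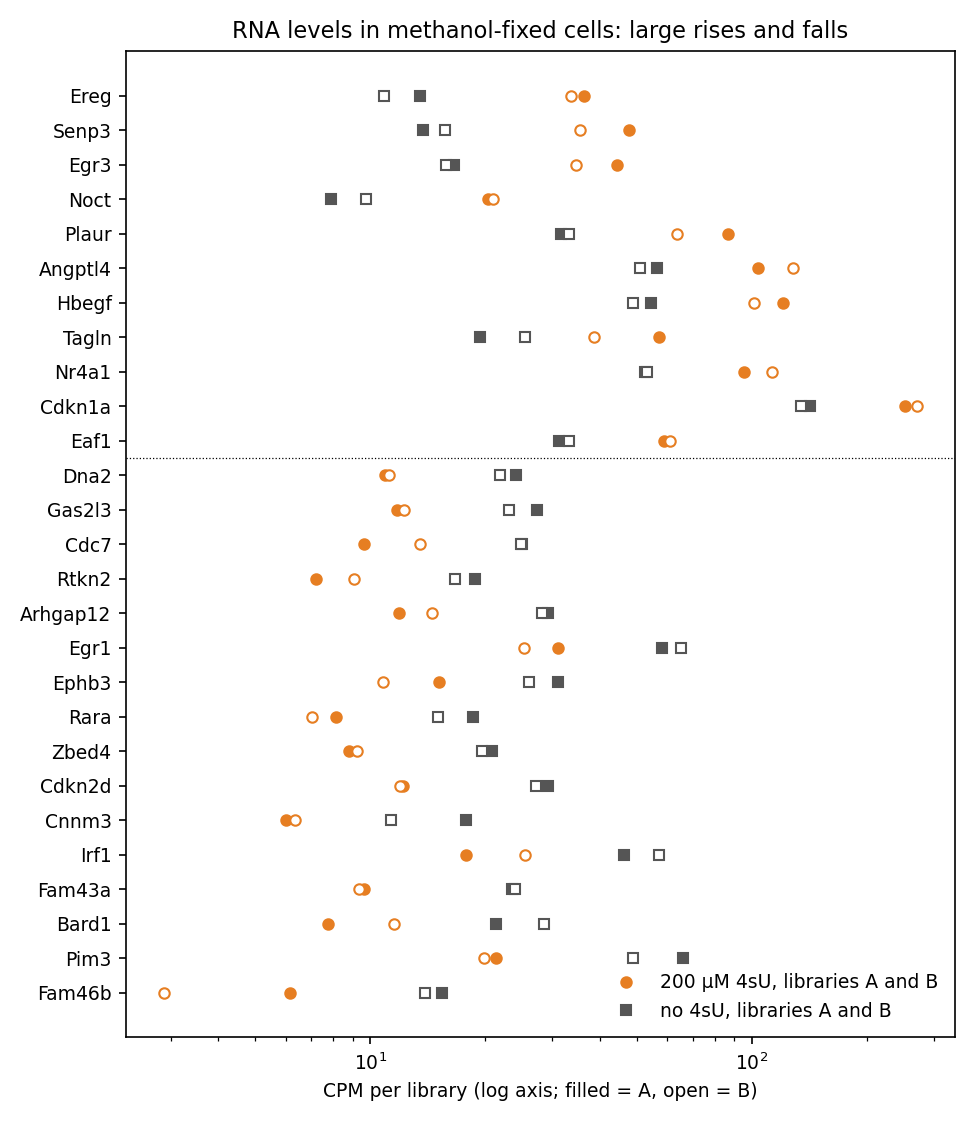
Levels of called genes in the 4 fixed-cell libraries, in TMM-scaled CPM on a log axis (circles, 200 µM; squares, no 4sU; filled, library A; open, library B). For each gene shown, both 200 µM libraries lie on 1 side of both no 4sU libraries, as for Angptl4 with 104 and 128 CPM at 200 µM against 56.4 and 50.9 CPM without 4sU.

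Angptl4, on the minus strand of chromosome 17 (33773750 to 33781830, GENCODE M21 on GRCm38), encodes a secreted inhibitor of lipoprotein lipase and is a PPAR target. It had 104 and 128 CPM with 200 µM 4sU, against 56.4 and 50.9 CPM without. The 2 groups were apart, with a log2 fold of 1.11 ± 0.14 (SE; edgeR, BH-adjusted p = 0.00134), and it remained called in 3 of the 4 fits with a library left out. With no 4sU B left out it was not called, at a log2 fold of 1.08 (edgeR, BH-adjusted p = 0.0823). Nearly all of its RNA was new: the deposited ratio was 100% in both 200 µM libraries, with a lower (0.05) quantile of 92.9% in A and 95.4% in B. It was the only call among 9 tested PPAR-linked lipid genes, whose median log2 fold was 0.0477 (-0.0598 with scaling on low-ratio genes).

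Growth factor ligands were among the rises. Ereg, which encodes epiregulin, had 36.4 and 33.5 CPM with 200 µM 4sU, against 13.5 and 10.9 CPM without. Hbegf, which encodes heparin-binding EGF-like growth factor, had 120 and 101 CPM with 200 µM 4sU, against 54.3 and 48.8 CPM without. Both are ligands of the EGF receptor, and for both the lowest 200 µM library lay well above the highest no 4sU library. The log2 folds were 1.52 ± 0.25 for Ereg (SE; edgeR, BH-adjusted p = 0.00832) and 1.10 ± 0.15 for Hbegf (SE; edgeR, BH-adjusted p = 0.00262). Egfr itself, the receptor, had 7.2 and 5.8 CPM with 200 µM 4sU and 6.4 and 6.7 CPM without (log2 fold -0.01 ± 0.35, SE, not called). Of 6 tested genes of the EGF receptor family and its ligands, these 2 rose and none fell. Their median log2 fold was 0.0984, and -0.00298 with scaling on low-ratio genes, beside -0.00232 over all genes tested.

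Extracellular proteolysis and matrix genes gave further rises and a fall. Plaur, the urokinase receptor, had 86.6 and 63.8 CPM with 200 µM 4sU, against 31.6 and 33.3 CPM without. Thbs1, which encodes the matricellular protein thrombospondin 1, had 202 CPM in each 200 µM library, against 106 and 114 CPM without 4sU. The libraries of both genes were separated by group, although the 2 libraries of Plaur at 200 µM differed more from each other than those without 4sU did. The log2 folds were 1.21 ± 0.19 for Plaur (SE; edgeR, BH-adjusted p = 0.00463) and 0.88 ± 0.15 for Thbs1 (SE; edgeR, BH-adjusted p = 0.0124). Thbs1 was the only call among 31 tested extracellular matrix and secreted protein genes, whose median log2 fold was 0.147 (0.0419 with scaling on low-ratio genes), with 27 values above 0. Outside that list, the protease gene Adamts5 fell (log2 fold -0.948; edgeR, BH-adjusted p = 0.0144).

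The TGF-beta and BMP pathways gave calls in both directions. Skil, which encodes SnoN, a repressor of Smad-driven transcription, had 41.8 and 45.8 CPM with 200 µM 4sU, against 24.4 and 25.9 CPM without (log2 fold 0.80 ± 0.16, SE; edgeR, BH-adjusted p = 0.0298). Rgma, a co-receptor of BMP ligands, had 18.4 and 18.3 CPM with 200 µM 4sU, against 40.8 and 28.1 CPM without. Its no 4sU libraries differed from each other by more than the 200 µM libraries did, and the groups were still apart (log2 fold -0.90 ± 0.20, SE; edgeR, BH-adjusted p = 0.0436). Rgma was not called with DESeq2's size factors in edgeR. Of the 19 tested members, 2 rose and 1 fell, and their median log2 fold was 0.188 (0.0842 with scaling on low-ratio genes).

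Immediate early transcription factors, which are induced within minutes of a stimulus and have short-lived mRNAs, split in direction. Egr3, a zinc finger factor, had 44.4 and 34.7 CPM with 200 µM 4sU, against 16.5 and 15.8 CPM without. Nr4a1, an orphan nuclear receptor, had 95.3 and 113 CPM with 200 µM 4sU, against 52.6 and 53.3 CPM without. Both rose, by log2 folds of 1.29 ± 0.23 for Egr3 (SE; edgeR, BH-adjusted p = 0.0148) and 0.97 ± 0.18 for Nr4a1 (SE; edgeR, BH-adjusted p = 0.0193). Egr1, the relative of Egr3 that binds the same GC-rich element, had 31.0 and 25.3 CPM with 200 µM 4sU, against 58.2 and 65.2 CPM without. Ier5, an immediate early gene tied to the heat shock response, had 254 and 223 CPM with 200 µM 4sU, against 430 and 362 CPM without. Both fell, by -1.13 ± 0.16 for Egr1 (SE; edgeR, BH-adjusted p = 0.00323) and -0.73 ± 0.13 for Ier5 (SE; edgeR, BH-adjusted p = 0.0148). The remaining 25 of the 29 tested members were not called. Among them, Jun had 114 and 91.4 CPM with 200 µM 4sU against 148 and 133 CPM without, and Fosl1 112 and 113 CPM against 98.8 and 97.9 CPM; neither was among the genes chosen by rule, and both were picked after their values were seen. Over the list the median log2 fold was 0.193 and the median ratio 99.0%. Among 17 tested feedback inhibitors of MAP kinase signalling none was called by edgeR, 5 had an unadjusted p under 0.05 and DESeq2 called 1 fall; their median log2 fold was 0.132. The smallest p was that of the phosphatase Dusp1, at 58.4 and 55.6 CPM with 200 µM 4sU against 91.7 and 85.9 CPM without (log2 fold -0.64 ± 0.15, SE; edgeR, BH-adjusted p = 0.0567).

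The list of insulin signalling and Pim kinase genes gave calls in 1 direction. Pim3, a serine/threonine kinase that promotes survival, had 21.4 and 19.9 CPM with 200 µM 4sU, against 66.1 and 48.9 CPM without. Irs1, the docking protein of the insulin receptor, had 28.6 and 27.5 CPM with 200 µM 4sU, against 57.3 and 52.9 CPM without. In both genes the highest 200 µM library lay far below the lowest no 4sU library. The log2 folds were -1.48 ± 0.19 for Pim3 (SE; edgeR, BH-adjusted p = 0.00175) and -0.97 ± 0.17 for Irs1 (SE; edgeR, BH-adjusted p = 0.0139). Sertad3, a list member outside insulin signalling and the Pim kinases, had 13.9 and 13.1 CPM with 200 µM 4sU, against 33.1 and 22.2 CPM without. Its log2 fold was -1.03 ± 0.23 (SE; edgeR, BH-adjusted p = 0.0473), and it was not called with DESeq2's size factors in edgeR. These 3 of the 21 tested members fell and none rose. The list's median log2 fold was -0.231 and 16 values were below 0, and its median ratio was 93.1%.

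Stress and growth arrest genes moved in few members. Cdkn1a, the p21 inhibitor of cyclin-dependent kinases and a p53 target, had 251 and 271 CPM with 200 µM 4sU, against 142 and 135 CPM without. Its groups were far apart (log2 fold 0.92 ± 0.15, SE; edgeR, BH-adjusted p = 0.0106), and it was the only call among 23 tested p53 targets, whose median was 0.0473 (-0.058 with scaling on low-ratio genes). Mdm2, the ubiquitin ligase that p53 induces, had 94.9 and 126 CPM with 200 µM 4sU and 87.0 and 86.7 CPM without, and Ccng1, encoding cyclin G1, 170 and 193 CPM against 135 and 128 CPM; neither was called, and both were picked after their values were seen. Ppp1r15a, the phosphatase subunit that reverses eIF2alpha phosphorylation, had 15.1 and 17.0 CPM with 200 µM 4sU, against 31.7 and 32.6 CPM without (log2 fold -1.005 ± 0.19, SE; edgeR, BH-adjusted p = 0.0214). Chac1, a glutathione-degrading enzyme induced by ATF4, had 26.9 and 28.5 CPM with 200 µM 4sU, against 57.5 and 48.1 CPM without (log2 fold -0.93 ± 0.19, SE; edgeR, BH-adjusted p = 0.0243). These 2 of 20 tested integrated stress response genes fell and none rose, while the list's median was 0.049 (-0.0574 with scaling on low-ratio genes). Herpud1, of endoplasmic reticulum-associated degradation, had 38.0 and 36.1 CPM with 200 µM 4sU against 64.4 and 54.9 CPM without, and was the only call among 17 tested genes of endoplasmic reticulum stress; with DESeq2's size factors in edgeR it was not called. None of 14 tested heat shock genes was called by edgeR or DESeq2, 1 had an unadjusted p under 0.05, and their median log2 fold was 0.128.

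Metallothioneins bind zinc, and Mt2 rose, at 484 and 565 CPM with 200 µM 4sU against 329 and 352 CPM without (log2 fold 0.63 ± 0.12, SE; edgeR, BH-adjusted p = 0.0228). Its paralogue Mt1 had 2083 and 2253 CPM with 200 µM 4sU against 1808 and 1770 CPM without, and the zinc exporter Slc30a1 28.7 and 36.7 CPM against 25.2 and 18.9 CPM. The groups were apart for both, as they were for 49.2% of all genes tested, and neither was called. The rule by which the authors divided reads between similar genes is not known here, so counts of these paralogues are uncertain. The 4 tested genes of this list all had log2 values above 0, with a median of 0.519 (0.414 with scaling on low-ratio genes). Ccl2, a monocyte-attracting chemokine, had 259 and 255 CPM with 200 µM 4sU against 139 and 160 CPM without (log2 fold 0.78 ± 0.18, SE; edgeR, BH-adjusted p = 0.0491). It was the only call among 19 tested NF-kappaB targets and cytokines, whose median was -0.0989, and it was not called with scaling on low-ratio genes. That list does not hold Irf1 or the cytokine Il34, which both fell (log2 folds -1.26 and -0.726). Il34 was not called with DESeq2's size factors in edgeR.

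Cell cycle and DNA repair genes were among the falls. Plk1, a mitotic kinase, had 126 and 145 CPM with 200 µM 4sU, against 224 and 208 CPM without (log2 fold -0.68 ± 0.14, SE; edgeR, BH-adjusted p = 0.0337). Bard1, the partner of Brca1 in homologous recombination, had 7.75 and 11.5 CPM with 200 µM 4sU, against 21.4 and 28.5 CPM without (log2 fold -1.38 ± 0.25, SE; edgeR, BH-adjusted p = 0.0148). Both genes were lower in both 200 µM libraries, and each was the only call of its list. These lists do not hold Kif14, Troap or Gen1, called genes of related roles that also fell (log2 folds -1.04, -0.654 and -0.906). Gen1 was not called with DESeq2's size factors in edgeR. Of 34 tested mitosis and spindle genes 30 had log2 values below 0 (median -0.274), and of 34 tested homologous recombination and Fanconi genes 27 did (median -0.189), beside 5574 of 11080 over all genes tested. With scaling on low-ratio genes, 4 mitosis genes and 3 recombination genes fell. Brca1 had 12.4 and 14.2 CPM with 200 µM 4sU and 12.02 and 11.5 CPM without, and was not called; it was picked after its values were seen. Among the largest falls, Dna2, a nuclease and helicase of replication forks, had 10.96 and 11.2 CPM with 200 µM 4sU, against 24.0 and 21.9 CPM without. Cdc7, the kinase that starts replication origins, had 9.62 and 13.5 CPM with 200 µM 4sU, against 24.98 and 24.8 CPM without. Cdkn2d, an inhibitor of Cdk4 and Cdk6, had 12.2 and 11.9 CPM with 200 µM 4sU, against 29.3 and 27.2 CPM without. For these 3 genes every 200 µM library lay below every no 4sU library, and the log2 folds were -1.05 ± 0.22, -1.11 ± 0.22 and -1.23 ± 0.24 (SE; edgeR, BH-adjusted p = 0.0326, 0.0243 and 0.0214). None of 43 tested genes in the list of DNA replication and S phase, which does not hold Dna2 or Cdc7, was called by edgeR or DESeq2, and 2 had an unadjusted p under 0.05 (median log2 fold 0.0166, and -0.0863 with scaling on low-ratio genes).

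The other large falls were of genes with varied roles. Irf1, a transcription factor of the interferon response, had 17.8 and 25.5 CPM with 200 µM 4sU, against 46.2 and 56.9 CPM without (log2 fold -1.26 ± 0.24, SE; edgeR, BH-adjusted p = 0.0214). Rara, the retinoic acid receptor alpha, had 8.15 and 7.05 CPM with 200 µM 4sU, against 18.6 and 15.03 CPM without. Ephb3, a receptor of ephrins, had 15.1 and 10.8 CPM with 200 µM 4sU, against 31.0 and 26.1 CPM without. All 3 were lower in both 200 µM libraries; Rara and Ephb3 were not called with DESeq2's size factors in edgeR. The GTPase-activating protein gene Arhgap12 had 11.9 and 14.5 CPM with 200 µM 4sU, against 29.3 and 28.1 CPM without. Gas2l3, which encodes a linker of actin and microtubules, had 11.8 and 12.2 CPM with 200 µM 4sU, against 27.4 and 23.0 CPM without. Fam43a had 9.62 and 9.35 CPM with 200 µM 4sU, against 23.5 and 24.0 CPM without. The groups were again apart in each, and the log2 fold of Fam43a was -1.32 ± 0.19 (SE; edgeR, BH-adjusted p = 0.00365). Fam46b, with 46 and 20 counts in the 200 µM libraries against 82 and 87 in the no 4sU libraries, had the largest spread at 200 µM of these genes, and its log2 fold was -1.68 ± 0.37 (SE; edgeR, BH-adjusted p = 0.0424); DESeq2 gave it no adjusted p. The remaining falls named by size were Zbed4, Cnnm3 and Rtkn2, with log2 folds of -1.17, -1.23 and -1.12; Cnnm3 was not called with DESeq2's size factors in edgeR. Of the calls, 51 of 63 falls and 10 of 27 rises averaged under 50 CPM in the 200 µM libraries. Over all genes tested, the median level in the fixed-cell libraries with 200 µM and no 4sU was 26.4 CPM. Falls are low and rises high in the 200 µM libraries by selection, so nothing is read from these counts.

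Further rises included Noct, which encodes the circadian phosphatase nocturnin, with 20.3 and 21.0 CPM with 200 µM 4sU against 7.89 and 9.76 CPM without (log2 fold 1.22 ± 0.26, SE; edgeR, BH-adjusted p = 0.0337). Eaf1, a partner of the elongation factor ELL, had 58.8 and 61.0 CPM with 200 µM 4sU, against 31.2 and 33.1 CPM without (log2 fold 0.90 ± 0.15, SE; edgeR, BH-adjusted p = 0.0093). Nolc1, a nucleolar phosphoprotein, had 239 and 232 CPM with 200 µM 4sU against 156 and 160 CPM without (log2 fold 0.58 ± 0.13, SE; edgeR, BH-adjusted p = 0.0473). The groups did not overlap in any of these, and Nolc1 was the only call among 47 tested nucleolar and ribosome biogenesis genes; it was not called with scaling on low-ratio genes. The SUMO pathway gave 1 call each way among 20 tested genes. The SUMO protease gene Senp3 had 47.6 and 35.4 CPM with 200 µM 4sU, against 13.7 and 15.7 CPM without (log2 fold 1.49 ± 0.34, SE; edgeR, BH-adjusted p = 0.047). The SUMO ligase gene Pias3 had 24.1 and 19.6 CPM with 200 µM 4sU, against 40.2 and 35.3 CPM without (log2 fold -0.79 ± 0.17, SE; edgeR, BH-adjusted p = 0.0375). Both groups were apart in each gene; Senp3 was called neither by DESeq2 nor with scaling on low-ratio genes, and DESeq2's size factors in edgeR lost Pias3. The largest fitted fold among the called genes, that of Lsmem1, rested on few reads, with 30 and 24 counts at 200 µM against 1 and 0 without 4sU. The scaled ratio of its summed counts was 43.3 (exact 95% interval 7.45 to 1740, counting error only), and DESeq2 gave it no adjusted p; it was picked after its values were seen.

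Several other called genes share a textbook role and were grouped after their values were seen, so the groups have no test. Lats2, a kinase of the Hippo pathway, had 44.1 and 35.8 CPM with 200 µM 4sU against 75.3 and 64.3 CPM without, and Vgll3, a cofactor of the TEAD factors that end that pathway, had 16.2 and 13.0 CPM against 26.5 and 28.6 CPM. Both fell. Of Polycomb genes, Eed had 38.9 and 38.7 CPM with 200 µM 4sU against 67.1 and 72.6 CPM without, and Phc3 had 28.2 and 27.2 CPM against 48.3 and 44.1 CPM. Both fell, and Phc3 was not called with DESeq2's size factors in edgeR. The Wnt pathway adaptor Dvl2 had 85.3 and 80.9 CPM with 200 µM 4sU against 141 and 132 CPM without, and Dact1, which binds Dvl proteins and got no adjusted p from DESeq2, had 4.28 and 3.60 CPM against 13.7 and 10.4 CPM. Wee1, the kinase that holds back Cdk1, had 17.2 and 20.1 CPM with 200 µM 4sU against 39.1 and 36.8 CPM without. Each of these was below the no 4sU range in both 200 µM libraries. Vasn, a membrane protein that binds TGF-beta, was among the rises, with 133 and 129 CPM with 200 µM 4sU against 85.3 and 77.1 CPM without.

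**Figure D2:**
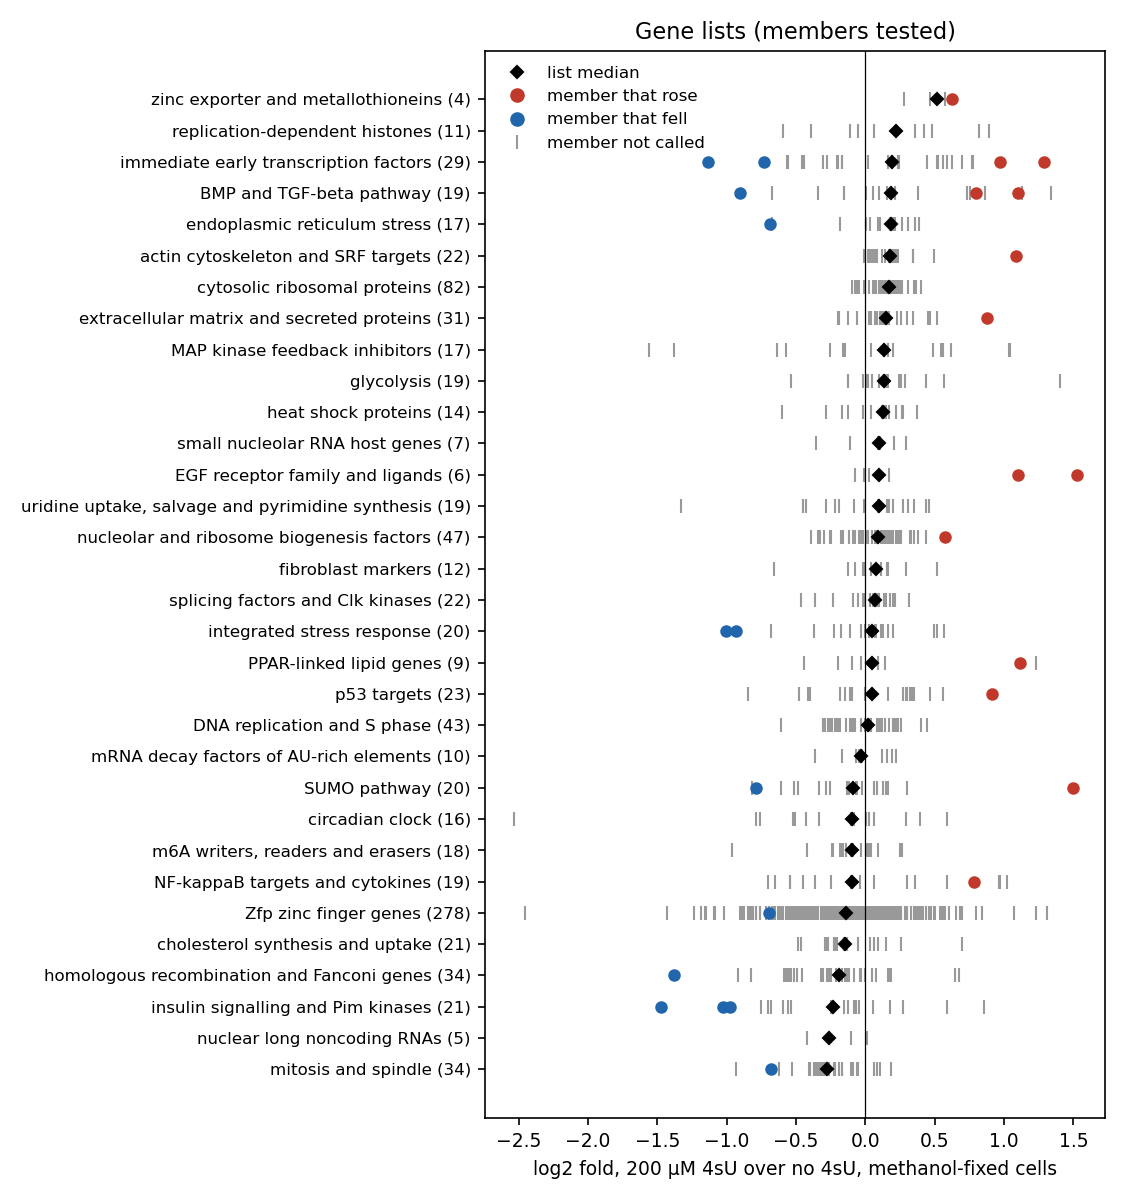
Log2 folds, 200 µM over no 4sU, of the tested members of each gene list, with the list median as a diamond. Most members lie near 0, and called members stand out on either side, as in the immediate early list, where Egr3 and Nr4a1 rose and Egr1 and Ier5 fell.

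In most of the lists no member was called, or 1 was. Of 82 tested cytosolic ribosomal protein genes, whose transcripts are long-lived (median ratio 10.4%), edgeR called none and DESeq2 1 rise, and 2 had an unadjusted p under 0.05, while 76 had log2 values above 0 and the median was 0.17 (0.0645 with scaling on low-ratio genes). Rps2 had 594 and 598 CPM with 200 µM 4sU against 444 and 457 CPM without (log2 fold 0.40 ± 0.12, SE; edgeR, BH-adjusted p = 0.156). Of 278 tested Zfp zinc finger genes, many of them repressors with short-lived transcripts (median ratio 88.9%), 1 fell and 181 had log2 values below 0 (median -0.136). That 1 was Zfp639, with 26.1 and 30.1 CPM with 200 µM 4sU against 43.4 and 47.5 CPM without; it was not called by DESeq2 or with its size factors in edgeR. None of 18 tested m6A genes was called by edgeR or DESeq2, and 2 had an unadjusted p under 0.05; Mettl14, a subunit of the m6A writer, had 11.8 and 14.1 CPM with 200 µM 4sU against 26.7 and 23.8 CPM without (log2 fold -0.96 ± 0.25, SE; edgeR, BH-adjusted p = 0.0885). None of 19 tested genes of uridine uptake, salvage and pyrimidine synthesis was called by edgeR or DESeq2, and 5 had an unadjusted p under 0.05; Uck2, the kinase that phosphorylates uridine and its analogues, had 192 and 203 CPM with 200 µM 4sU against 163 and 148 CPM without (log2 fold 0.35 ± 0.12, SE; edgeR, BH-adjusted p = 0.219). Splicing factors (22), glycolysis (19), cholesterol synthesis and uptake (21), the circadian clock (16), AU-rich element decay factors (10), replication-dependent histones (11), small nucleolar RNA host genes (7) and nuclear long noncoding RNAs (5) also gave none by edgeR. Their median log2 folds, in that order, were 0.0705, 0.132, -0.144, -0.0949, -0.0287, 0.224, 0.102 and -0.261, and 1, 4, 3, 5, 1, 1, 0 and 2 of their members had an unadjusted p under 0.05. DESeq2 called 1 rise in the glycolysis list, 1 fall in the cholesterol list and none in the others. The signs of the splicing and host gene medians flip with scaling on low-ratio genes and that of the decay factors with DESeq2's size factors. Among the clock genes, Hlf had 14.04 and 15.97 CPM with 200 µM 4sU against 26.9 and 24.0 CPM without (log2 fold -0.76 ± 0.19, SE; edgeR, BH-adjusted p = 0.0684). Of 3 abundant transcripts given as examples, Gapdh had 330.03 and 333 CPM with 200 µM 4sU against 328 and 271 CPM without, Actb 12284 and 10808 CPM against 9919 and 9648 CPM, and Malat1 630.4 and 515 CPM against 569 and 566 CPM; none was called. Over all tested genes the counts at an unadjusted p under 0.05 were 1397 by edgeR, and DESeq2 called 119 after adjustment, 46 that rose and 73 that fell.

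**Figure D3:**
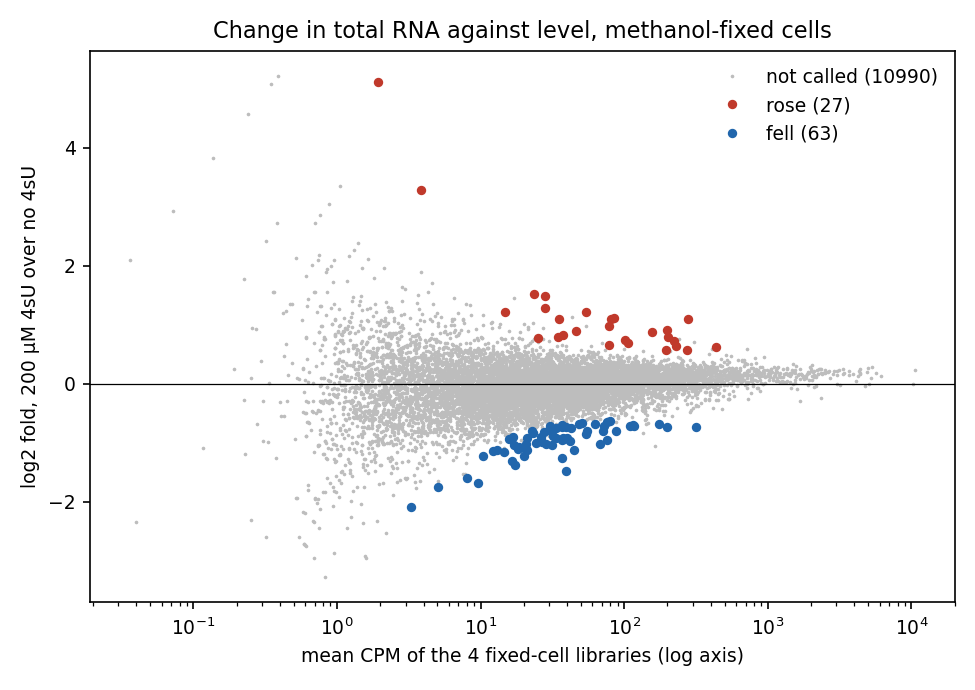
Log2 fold, 200 µM over no 4sU, of the tested genes against their mean level in CPM on a log axis, with the 27 called rises and 63 called falls coloured. The called falls lie at lower levels than the rises, with medians of 33.3 CPM for the falls and 78.5 CPM for the rises, beside 26.4 CPM over all genes tested.

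The deposited new-to-total ratio showed how much of each called gene's RNA in the 200 µM libraries was made during the 2 h of labelling. Its maximum a posteriori (MAP) value, averaged over A and B, had a median of 95.8% among the 27 rises and 88.1% among the 63 falls, beside 44.7% over the 11052 tested genes with a ratio. It was 90% or more in 18 rises (66.7%) and 31 falls (49.2%), beside 14.4% of tested genes. The ratio and the calls come from the same 200 µM libraries and the same 2 h. The ratios of called genes are therefore not independent of the calling, and their distance from all tested genes was not tested. A ratio of 100% in both libraries was listed for 8 rises and 11 falls, among them Angptl4, Hbegf, Nr4a1, Ier5, Troap and Rara, and is the upper end of the scale, above the 0.95 quantile of the same gene. Ratios were used only from libraries with 4sU, and their background in unlabelled cells was therefore not measured here. The ratio of A and B agreed within the 0.05 to 0.95 quantiles for most called genes and was apart for 13 of 90 (14.4%), beside 9.3% over all genes tested. For Egr1 the ratio was 100% in A (quantiles 95.4% to 99.9%) and 87.8% in B (78.2% to 94.3%). For Kdm4a, a histone demethylase, it was 31.4% in A (26.9% to 36.4%) and 47.2% in B (41.8% to 52.9%).

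Called genes with little new RNA were few: 2 rises and 3 falls had a mean ratio under 50%, as did 55.1% of tested genes. The lowest was that of Tagln, which encodes the actin-binding protein transgelin, at 23.5% in A and 11.4% in B, and the quantile ranges of the 2 libraries were apart. Tagln had 56.9 and 38.6 CPM with 200 µM 4sU, against 19.3 and 25.4 CPM without (log2 fold 1.09 ± 0.24, SE; edgeR, BH-adjusted p = 0.0457). The old RNA of Tagln, its level times 1 minus the ratio, was 43.6 and 34.2 CPM in the 200 µM libraries, above the total of either no 4sU library. It was the only called gene with that property, and 1.35% of tested genes had it. Tagln (chromosome 9, 45929619 to 45936058, minus strand, GRCm38) overlaps Pcsk7 on the other strand, and it is not known here whether the counts kept strands apart. Ugdh, which makes UDP-glucuronate for matrix sugars, had ratios of 36.3% in A and 31.1% in B and rose, at 316 and 334 CPM with 200 µM 4sU against 213 and 226 CPM without. With scaling on low-ratio genes, neither Tagln nor Ugdh was called. Among the falls, Kdm4a had 62.0 and 62.5 CPM with 200 µM 4sU against 97.1 and 95.3 CPM without, of which 42.6 and 33.0 CPM were old in the 200 µM libraries. Rassf2, a Ras association domain protein, had 47.7 and 48.6 CPM with 200 µM 4sU, of which 30.0 and 31.5 CPM were old, against 79.3 and 76.4 CPM in all without 4sU. Adamts5, an aggrecan-cleaving protease, and Rtkn2 had mean ratios of 51.1% and 48.2%. In 22 of the 27 rises, the new RNA alone exceeded the total of both no 4sU libraries, which 2.93% of tested genes with a ratio did; the 5 others were Tagln, Marcksl1, Mt2, Nolc1 and Ugdh. The rises were chosen for totals above no 4sU, which favours this count, and nothing is read from its distance to the share of all genes.

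Across the 6809 genes with at least 100 counts on average in the no 4sU libraries, the log2 fold ran lower as the ratio ran higher. Spearman's rho was -0.372 across genes, which are not independent replicates, and the fold and the ratio share the 200 µM libraries. With the genes in 10 groups by ratio, the median log2 fold was 0.119 in the lowest (ratios of 0.845% to 13.6%), 0.0264 in the fifth and -0.156 in the ninth. In the highest group, at 91.0% to 100% new RNA, the median was -0.133, and the group held 14 rises and 27 falls, so that 6.02% of its genes were called. No gene was called in the lowest group. The relation was weaker with library A alone as the labelled library (-0.263) than with B alone (-0.404). Length ran with the ratio as well: the median log2 fold was 0.134 in the shortest of 10 groups of genes by length, with a median ratio of 16.7%, and -0.0575 in the longest, with 55.9%. The part of length in the relation was not tested. Scaling on low-ratio genes lowers all these medians alike, by about the shift given above.

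**Figure D4:**
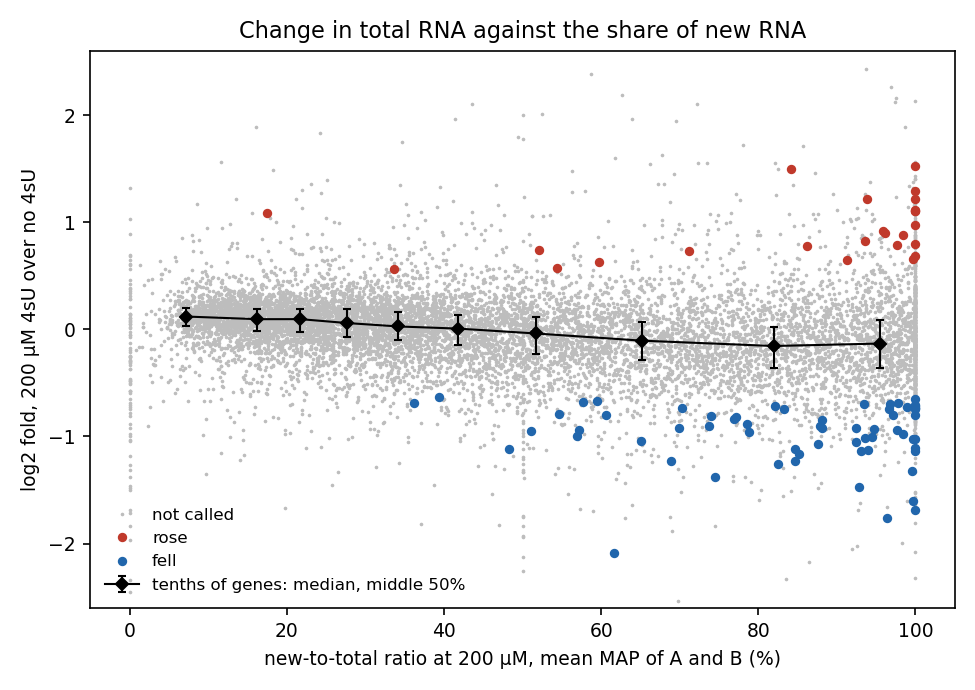
Log2 fold, 200 µM over no 4sU, against the mean new-to-total ratio of the 200 µM libraries in percent, with called genes coloured and the medians of the 10 groups of genes joined by a line; values beyond 2.6 on the log2 scale are not drawn. The medians lie at 0.119 in the group with the lowest ratio and -0.133 in the group with the highest, which holds 14 of the rises and 27 of the falls.

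The same contrast in tubes, 200 µM 4sU against no 4sU with conversion of isolated RNA, shares no library with the fixed cells. There 416 genes were called (3.75%), 262 that rose (2.36%) and 154 that fell (1.39%). Of the 27 fixed-cell rises, 26 had a tube log2 fold above 0 and 16 also rose in tubes. Of the 63 falls, 57 had a tube log2 fold below 0 and 19 also fell in tubes. Over all tested genes, 62.5% had the same sign in both procedures. The median tube log2 fold was 0.727 for the fixed-cell rises and -0.499 for the falls. Angptl4 had 148 and 168 CPM with 200 µM 4sU in tubes, against 53.2 and 52.7 CPM without (log2 fold 1.58 ± 0.14, SE; edgeR, BH-adjusted p = 1.8e-05). Nr4a1 had 104 and 133 CPM with 200 µM 4sU in tubes, against 41.1 and 25.2 CPM without (log2 fold 1.85 ± 0.19, SE; edgeR, BH-adjusted p = 6.5e-05). Egr1 fell in tubes as well, at 57.8 and 54.9 CPM with 200 µM 4sU against 87.6 and 85.2 CPM without. The groups did not overlap in tubes for these 3 genes, and the share of all tested genes apart in tubes was not counted. Wee1, in contrast, had 34.8 and 35.2 CPM with 200 µM 4sU in tubes and 32.7 and 37.5 CPM without, and Irf1 21.9 and 27.5 CPM against 24.1 and 27.4 CPM.

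The difference between the procedures in the effect of 200 µM 4sU was tested itself, as an interaction in the same fit. No gene passed BH adjustment in edgeR (0 of 11080, 0%), with 993 at an unadjusted p under 0.05, and DESeq2 called 11, 4 of them with a higher and 7 with a lower fold in fixed cells. In edgeR, the count was 9 without the fixed 800 µM library A, 3 without the tube no 4sU library B, 1 without the tube 200 µM library B, and 0 without each of the other 6 libraries of the 4 groups compared. Among the 90 fixed-cell calls the smallest adjusted p was 0.147 (edgeR, BH), that of Tagln. For Wee1 the difference in log2 fold, fixed cells minus tubes, was -1.01 (edgeR, BH-adjusted p = 0.304) and for Irf1 -1.20 (edgeR, BH-adjusted p = 0.328). For Angptl4 it was -0.47 (edgeR, BH-adjusted p = 0.517). These p-values do not show that the procedures gave the same response.

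**Figure D5:**
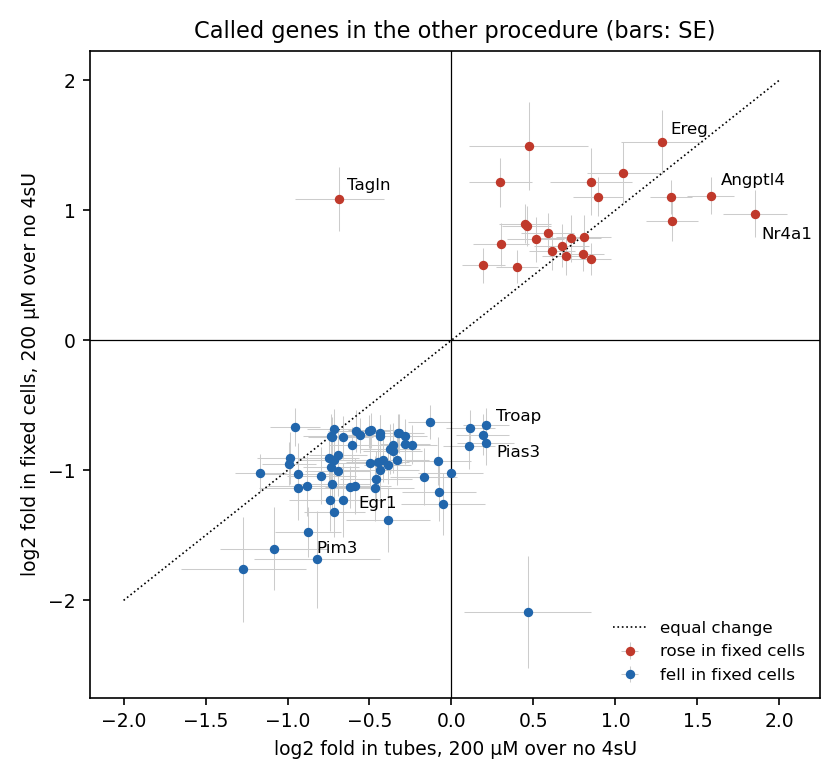
Log2 fold of the called genes at 200 µM over no 4sU in fixed cells (vertical) against that in tubes (horizontal), with SE bars and a dotted line of equal change; Lsmem1 and Gm6576 lie beyond the axes. Of 27 rises 26 lie right of 0 and of 63 falls 57 lie left of 0, with Tagln among the exceptions.

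The step from 200 to 800 µM within fixed cells was tested directly. No gene passed BH adjustment in edgeR (0%), with 872 at an unadjusted p under 0.05, and DESeq2 called 0. Without the fixed 800 µM library B, the fit called 484 genes (348 higher and 136 lower at 800 µM), while leaving out each of the other 3 libraries in turn gave 0 calls. The median log2 step, 800 over 200 µM, was -0.0301 over the 27 rises and 0.00473 over the 63 falls. Angptl4 had 133 and 127 CPM at 800 µM, beside 104 and 128 CPM at 200 µM (log2 step 0.17; edgeR, BH-adjusted p = 0.797). Pim3 had 24.4 and 19.6 CPM at 800 µM, beside 21.4 and 19.9 CPM at 200 µM (log2 step 0.09; edgeR, BH-adjusted p = 0.946). The 2 doses overlapped for both genes. Hbegf had 113 and 142 CPM at 800 µM, beside 120 and 101 CPM at 200 µM, and Irs1 had 18.3 and 19.8 CPM beside 28.6 and 27.5 CPM (log2 step -0.56; edgeR, BH-adjusted p = 0.529).

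The called genes were also set beside the other tested genes in features the test did not use. Their median gene length, as deposited, was 3011 bases for the rises and 3419 for the falls, beside 3385 over all genes tested. Base content was taken from the longest GENCODE transcript of each gene. Uridine made up 24.7% of it in the rises and 24.4% in the falls at the median, beside 25% over all genes tested. GC content was 51.4% and 52.3%, beside 49.5%. Of the 90 genes, 4 overlap another gene of the table on the same strand and 8 on the other strand only; among them Vasn overlaps Dnaja3, Txnrd1 overlaps Eid3, Lats2 overlaps Gm49361, Eaf1 overlaps Mettl6 and Dvl2 overlaps Acadvl. Reads of such pairs may not be told apart, depending on how they were counted.

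Promoters of called genes were searched for short motifs on both strands in RefSeq windows of GRCm38.p6, from 250 bases before to 50 after the start; 16 rises (20 promoters) and 52 falls (64 promoters) matched the RefSeq table. AP-1 sites, TGANTCA, lay in 10% of the promoters of rises, 3.12% of those of falls and 4.88% of the 11197 promoters of tested genes. CCAAT lay in 40% of the promoters of rises, 50% of those of falls and 38.5% of all, and TTTGAA in 5%, 18.8% and 11.8%. The CRE core TGACGT lay in 10%, 12.5% and 12.1%, TATAAA in 0%, 1.56% and 6.68%, and the CArG box in 0%, 3.12% and 1.34%. These shares are descriptions and carry no test. The 250 bases before the start are shown for 4 genes whose promoters hold these motifs: Plaur and Mt2, the rises with an AP-1 match, and Pim3 and Ier5, falls with both CCAAT and TTTGAA. Capitals mark AP-1 matches in Plaur and Mt2, and CCAAT and TTTGAA matches in Pim3 and Ier5, where a match on the other strand reads ATTGG or TTCAAA. In GRCm38.p6 the windows are chr7:24462233-24462482 for Plaur, chr8:94172368-94172617 for Mt2 and chr15:88861944-88862193 for Pim3, on the plus strand, and chr1:155099637-155099886 for Ier5, on the minus strand, each printed 5′ to 3′ along its gene.
Plaur: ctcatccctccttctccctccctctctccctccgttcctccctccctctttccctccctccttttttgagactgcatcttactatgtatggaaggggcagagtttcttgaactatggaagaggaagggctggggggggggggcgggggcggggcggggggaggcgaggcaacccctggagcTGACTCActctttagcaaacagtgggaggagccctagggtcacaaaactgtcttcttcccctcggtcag
Mt2: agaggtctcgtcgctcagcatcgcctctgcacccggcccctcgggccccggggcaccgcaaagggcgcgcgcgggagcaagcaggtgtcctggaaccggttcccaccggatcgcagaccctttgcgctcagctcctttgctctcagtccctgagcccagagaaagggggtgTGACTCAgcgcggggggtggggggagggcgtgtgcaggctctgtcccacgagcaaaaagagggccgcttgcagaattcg
Pim3: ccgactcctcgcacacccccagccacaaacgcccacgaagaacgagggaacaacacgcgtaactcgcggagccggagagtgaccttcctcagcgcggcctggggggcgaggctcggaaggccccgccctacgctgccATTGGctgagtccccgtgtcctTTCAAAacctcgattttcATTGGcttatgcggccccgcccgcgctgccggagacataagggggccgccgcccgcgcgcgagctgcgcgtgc
Ier5: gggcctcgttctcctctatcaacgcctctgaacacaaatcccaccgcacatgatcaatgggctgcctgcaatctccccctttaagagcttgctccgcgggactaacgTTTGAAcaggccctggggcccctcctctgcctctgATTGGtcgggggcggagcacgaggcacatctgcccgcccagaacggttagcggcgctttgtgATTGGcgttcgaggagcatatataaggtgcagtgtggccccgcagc
The AP-1 match of Plaur spans positions -69 to -63 from the start and that of Mt2 -79 to -73. Pim3 has CCAAT at -73 to -69 and -113 to -109, and Ier5 at -46 to -42 and -108 to -104, all on the other strand.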

How the data were processed

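NIH-3T3 RNA was sequenced after SLAM-seq conversion in methanol-fixed cells or in tubes, in 6 groups of 2 libraries. Read counts are the authors' expected counts for each gene, since 16.2% to 22.0% of a library's deposited values were not whole; they were rounded for the tests. Per the file headers, a gene's share of new RNA (new-to-total ratio) is a fraction between 0 and 1 in libraries with 4sU, deposited as MAP, mean, and 0.05 and 0.95 quantiles. The deposited alpha and beta scores of its beta distribution were used only for a check. Cutadapt, Bowtie2 2.3.0 and STAR 2.7.10b are named, without roles, in the submitters' processing notes. Not given in the sources used here are the genome build, annotation, counting tool, strandedness and ratio estimator. 

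Library totals ranged from 3629634 to 7762635 counts, and intervals from them cover counting error only. Genes passed filterByExpr (minimum count 10, total 15). edgeR 4.0.16 in R 4.3.3 fitted the 12 libraries as 6 groups without a block (quasi-likelihood F test, TMM scaling, BH at 0.05), with 6 residual degrees of freedom and a common biological coefficient of variation of 12.3%. The alternatives were DESeq2 1.42.0, its size factors in edgeR, no filter, a replicate block, leaving out each library, fits of fewer libraries, and scaling on low-ratio genes. The fits were tested on simulated data with 200 changed genes. CPM are TMM-scaled. Library pairs of a group differed beyond sampling noise. The labels do not say whether a shared letter marks a shared day or culture, and same-lettered libraries were not treated as pairs.

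Members and lists were chosen with earlier results of these data known. Genes were named by a rule: the 12 largest rises and 16 largest falls among calls that averaged 50 counts or more and moved one way in both lettered pairs, each called list member, for lists without a call those with the smallest p, the lowest mean ratios, and Gapdh, Actb and Malat1 as examples; Gm and Rik genes were passed over. No gene passed that rule for the difference between procedures or the dose step. The ratio and fold were related over genes with at least 100 counts on average in the no 4sU libraries, with log2 folds at a pseudocount of 0.5 CPM. Of the table's gene IDs, 15197 were found in GENCODE M21 (GRCm38), whose coordinates are given. Promoter sequences are RefSeq's for GRCm38.p6. A few genes that the rule names are not reported here.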

Additional observations from a re-analysis of the deposited data

Results flagged for a closer look

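In 6 of the 90 called genes (6.67%), every 200 µM library of the fixed cells lay on 1 side of both no 4sU libraries and every 200 µM library of the tubes on the other side of both tube libraries without 4sU, as did 680 of the 11080 tested genes (6.14%). The 2 shares are close, and nothing about the called genes is read from the count. They also cover unlike genes, since the fixed-cell groups were apart for all 90 calls but for 49.2% of tested genes. Tagln was higher with 200 µM 4sU in fixed cells and lower in tubes, at 19.4 and 14.4 CPM with 200 µM 4sU against 33.4 and 20.8 CPM without, and the difference in log2 fold, fixed cells minus tubes, was 1.77 ± 0.37 (SE; edgeR, BH-adjusted p = 0.147). The other 5 were lower with 200 µM 4sU in fixed cells and higher in tubes. Troap, which encodes a protein of the mitotic spindle, had 54.8 and 63.9 CPM with 200 µM 4sU in fixed cells against 93.2 and 93.6 CPM without, and in tubes 81.9 and 75.4 CPM against 65.4 and 70.4 CPM (difference -0.864). Pias3 had 35.7 and 34.7 CPM with 200 µM 4sU in tubes against 29.1 and 31.7 CPM without (difference -0.996). Il34, a cytokine that binds the receptor of Csf1, had 24.3 and 21.7 CPM with 200 µM 4sU in fixed cells against 35.9 and 40.3 CPM without, and in tubes 39.6 and 39.5 CPM against 34.2 and 35.1 CPM (difference -0.916). Spaca6 had a difference of -0.924, with 71.0 and 67.7 CPM with 200 µM 4sU in tubes against 60.9 and 67.6 CPM without. Gm28230, with 12 and 6 counts with 200 µM 4sU in fixed cells against 29 and 33 without, had a difference of -2.55, and it overlaps Hoxd3 and Hoxd4 on the same strand. None of the 6 differences passed BH adjustment in edgeR, and the cause was not tested. An unadjusted p under 0.05, which all 6 had, is favoured by the choice of genes on opposite sides. Such a p was found for 25 of the 90 calls and 993 of the 11080 tested genes. The difference includes the fixed-cell fold on which the 90 were called, which favours small p among them, so nothing is read from these counts.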

How the results depend on the processing

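For 200 µM against no 4sU in fixed cells, the count of 90 calls was 72 with DESeq2's size factors in edgeR and 119 with DESeq2, of which 71 and 81 were among the 90. It was 252 with no filter on low counts (79 rises and 173 falls), 652 in a fit of the 4 libraries alone, which has 2 residual degrees of freedom, 204 without the fixed 800 µM libraries, 199 with scaling on low-ratio genes, and 193 without the fixed 800 µM library A, an alternative chosen after seeing the data. Leaving out 1 of the 4 libraries gave 2 to 9 calls; the lone library of a group is then assumed to vary like the other groups. None of the 90 genes changed sign under any of these. The difference between fixed cells and tubes gave 0 calls, and 11 with DESeq2, 76 with no filter, 9 without the fixed 800 µM library A and 0 to 3 with 1 library left out. The step from 200 to 800 µM gave 0, and 127 with no filter and 0 to 484 with 1 library left out. The median ratio of 37.5% over genes with at least 100 counts was 41.1% at a minimum of 50 and 33.3% at 200, and its rho with the log2 fold was -0.404 to -0.263 with 1 library left out.

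Same-lettered libraries did not deviate together: the correlation of their deviations was 0.00854 between 200 µM and no 4sU in fixed cells, -0.0966 in tubes, and -0.206 between 800 and 200 µM in fixed cells, over 8516 genes. With the replicate letter as a block, 68 genes were called (19 rises and 49 falls), 65 of them among the 90, and the difference between procedures and the dose step gave 0. With the letters of the fixed 800 µM libraries crossed, chosen after seeing the data, the dose step also gave 0.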
